A study of Mus musculus with 6 samples.

Results

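The genes of sterol and fatty acid synthesis were examined in NOR-10, a line of fibroblasts from mouse skeletal muscle, after exposure to D-galactose (D-gal). Of the 34745 genes in the deposited table, 36 were chosen by name: 18 enzymes that build sterols, 12 enzymes that build, desaturate or elongate fatty acids, and 6 genes that control or transport sterols. The question was how the mevalonate and sterol branch compared with the fatty acid branch in the same libraries. RNA sequencing was done on 3 control libraries (Con), from cells given PBS, and on 3 D-gal libraries (Dgal), from cells given 20 mg/mL D-gal for 3 days according to the methods. No transgene, knockdown or other agent was named for any of these 6 libraries. All of them came from 1 cell line grown in a dish, and no source used here says that the replicates of a group were separate cultures, so the p-values measure only the spread between these libraries, which may be technical.

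Both branches start from acetyl-CoA in the cytosol. The mevalonate pathway condenses it into isoprenoid units, which squalene synthesis and a long series of ring modifications turn into cholesterol, while acetyl-CoA carboxylase and fatty acid synthase build palmitate, which desaturases and elongases then modify. SREBP transcription factors drive the genes of both branches: when membrane sterols run low, SCAP escorts SREBP from the endoplasmic reticulum to the Golgi, where proteases release the active factor, and INSIG proteins hold SCAP back when sterols are plentiful.

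The libraries held 16876087 to 20830349 counts in the control group and 13759108 to 15157064 in the D-gal group, so counting error was larger under D-gal for a gene of equal abundance. Of 10 fibroblast marker genes, 9 were expressed highly enough to be tested, and 6 of these fell (66.7%) while 1 rose (11.1%). Beside these and the marker counts below, 17.8% of all tested genes fell and 16.9% rose. Their summed level was 7618 to 7813 CPM (counts scaled to the total of the library) in control and 5000.3 to 5325 CPM in D-gal libraries. The muscle regulators Myod1, Myf5 and Pax7 and the adipocyte genes Adipoq, Cidec, Lep and Cfd were at 0 in all libraries. Summed adipocyte markers reached 126 to 133 CPM in control and 96.4 to 103 in D-gal libraries. Of these 10 adipocyte markers 4 were tested, and Lpl fell, from a mean of 1827 to 1337 normalized counts (edgeR adjusted p = 6.37e-04). Pparg, with means of 268 and 259, Cebpa and Fabp4 passed in neither direction. Summed muscle markers stood at 5.35 to 6.08 and 3.68 to 4.02 CPM, and endothelial and immune markers at 12.1 to 52.4 and 10.6 to 11.4. Control replicate 1 stood apart on these immune genes, with 546 normalized counts of the myeloid gene Lyz2 against 93.0 and 86.8 in the other control libraries. Without this library 10 of the 36 members fell and 5 rose, beside 11 and 5 with it. All 10 genes of dividing cells fell under D-gal, from 2742 to 2774 CPM in control to 1891 to 2002 CPM in D-gal libraries. The part of these shifts in the results below was not tested, and in bulk libraries fewer cells of a type and less RNA per cell cannot be told apart.

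All 36 genes passed the filter on low counts. A gene is said to have risen or fallen where its adjusted p in edgeR's quasi-likelihood test was under 0.05 over the 13407 genes tested. By this rule 11 of the 36 (30.6%) fell under D-gal, beside 17.8% of all tested genes, and 5 (13.9%) rose, beside 16.9% of all tested genes. The remaining 20 passed in neither direction. The changes were small: log2 fold changes ran from -0.43 for Idi1 to 1.13 for Acss2, with a median of -0.07, where the median of all tested genes was 0.00. Acss2 was the only member that also changed by at least 2-fold, the size the study asked of a differentially expressed gene, and 4.21% of all tested genes met that rule. In 16 members all D-gal libraries were below all control libraries, which held for 25.0% of all tested genes. In 9 members all of them were above, beside 24.1% of all tested genes, and in 11 members the groups overlapped.

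**Figure D1:**
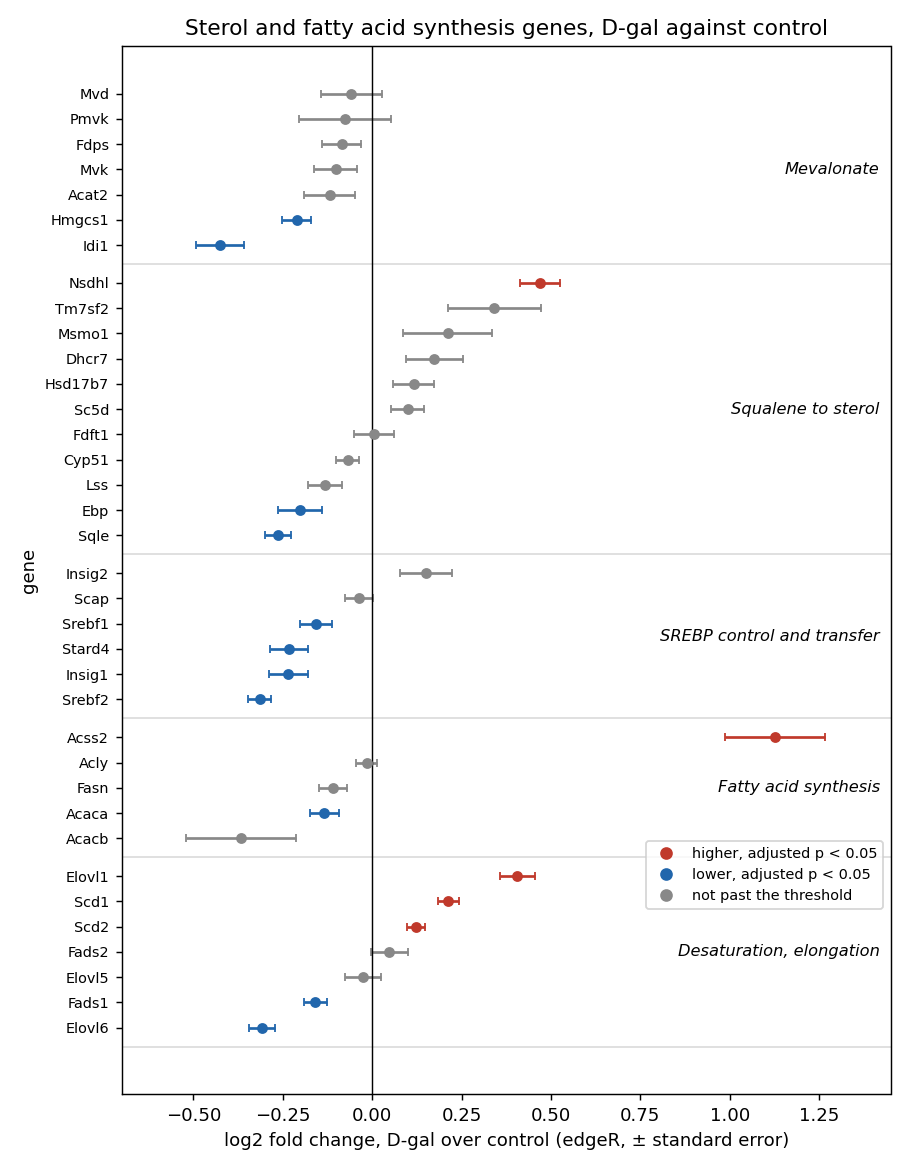
Log2 fold change (D-gal over control, x axis) of each of the 36 genes, grouped by step, with bars of ± 1 standard error and colours for genes that rose, fell or passed in neither direction at an adjusted p under 0.05. Acss2 lies alone at 1.13, and every other gene lies between -0.43 and 0.47.

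Members of both branches moved in both directions. Of the 18 sterol enzymes 4 fell (22.2%) and 1 rose (5.56%), with a median log2 fold change of -0.07. Beside these and the shares below, 17.8% of all tested genes fell and 16.9% rose. Of the 12 fatty acid enzymes 3 fell (25%) and 4 rose (33.3%), with a median of -0.02. The 6 control and transfer genes had the largest share of lower genes, with 4 falling (66.7%), none rising and a median of -0.19. Read by step, none of the 7 mevalonate enzymes rose and 2 fell (28.6%), and the 7 log2 fold changes ran from -0.43 to -0.06. The 5 that did not pass were small and moved with single libraries, Pmvk turning to 0.04 without D-gal replicate 3. Among the 11 enzymes from squalene to sterol 2 fell (18.2%) and 1 rose (9.09%), with a median of 0.10. Among the 5 genes of fatty acid synthesis 1 fell and 1 rose (20% each), with a median of -0.11. Among the 7 desaturases and elongases 2 fell (28.6%) and 3 rose (42.9%), with a median of 0.05. Shares of so few genes move by many percent with each gene, and the steps were not tested against each other.

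Promoter sequence was looked up for the genes that the expression results turn on, since SREBP, NF-Y and Sp1 are the factors that act together at many lipid synthesis promoters. RefSeq promoters of build GRCm38.p6, from 250 bases before to 50 bases after a start site, were held in the table used for 29 of the 36 genes, as 38 promoters. The 5 below belong to 3 genes that fell (Hmgcs1, Idi1 and Srebf2) and 2 that rose (Nsdhl and Acss2). They are written 5′ to 3′ on the strand of the gene, which was the plus strand for all 5, and capitals mark matches to the 4 motifs searched on both strands: TCACNCCAC for the sterol regulatory element, CCAAT for NF-Y, GGGCGG for Sp1 and CACGTG for E-box factors. On the opposite strand CCAAT reads ATTGG and the Sp1 motif, called the GC box, reads CCGCCC, and no motif is contained in another.
Hmgcs1, chr13:119690101-119690400: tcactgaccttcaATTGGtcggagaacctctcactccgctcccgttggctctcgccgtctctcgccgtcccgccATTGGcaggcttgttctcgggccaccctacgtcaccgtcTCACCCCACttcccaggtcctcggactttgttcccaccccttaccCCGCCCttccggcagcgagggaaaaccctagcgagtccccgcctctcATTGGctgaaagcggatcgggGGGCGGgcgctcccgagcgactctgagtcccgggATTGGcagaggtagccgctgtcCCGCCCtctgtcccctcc
Idi1, chr13:8885356-8885655: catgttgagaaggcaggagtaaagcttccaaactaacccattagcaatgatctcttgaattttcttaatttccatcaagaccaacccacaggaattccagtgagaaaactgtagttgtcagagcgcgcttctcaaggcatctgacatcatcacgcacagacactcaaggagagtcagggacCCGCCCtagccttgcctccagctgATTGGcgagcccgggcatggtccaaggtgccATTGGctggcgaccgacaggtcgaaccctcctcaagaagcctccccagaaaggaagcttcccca
Srebf2, chr15:82147019-82147318: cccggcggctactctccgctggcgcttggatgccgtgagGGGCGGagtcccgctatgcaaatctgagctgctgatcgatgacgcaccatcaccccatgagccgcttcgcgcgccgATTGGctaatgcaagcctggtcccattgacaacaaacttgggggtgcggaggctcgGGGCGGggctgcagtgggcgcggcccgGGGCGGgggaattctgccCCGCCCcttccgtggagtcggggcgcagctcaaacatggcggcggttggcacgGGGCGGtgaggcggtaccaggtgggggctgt
Nsdhl, chrX:72918271-72918570: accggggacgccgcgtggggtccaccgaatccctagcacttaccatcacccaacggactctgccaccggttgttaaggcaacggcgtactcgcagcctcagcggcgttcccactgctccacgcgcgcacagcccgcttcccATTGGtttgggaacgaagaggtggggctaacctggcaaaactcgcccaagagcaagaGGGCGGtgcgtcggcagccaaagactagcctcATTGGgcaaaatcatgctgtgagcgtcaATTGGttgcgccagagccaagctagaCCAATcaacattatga
Acss2, chr2:155517793-155518092: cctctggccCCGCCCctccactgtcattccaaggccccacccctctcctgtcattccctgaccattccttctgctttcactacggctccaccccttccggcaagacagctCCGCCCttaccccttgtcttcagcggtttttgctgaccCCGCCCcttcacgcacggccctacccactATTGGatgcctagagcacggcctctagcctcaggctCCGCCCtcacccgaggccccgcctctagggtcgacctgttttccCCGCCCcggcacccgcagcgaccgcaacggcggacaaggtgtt

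All 5 of these promoters held CCAAT and the GC box in at least 1 copy, and Hmgcs1 and Nsdhl each held 4 copies of CCAAT. These 5 were a selection: the promoters of Acaca and Elovl6, which also fell, held no match to any of the 4 motifs. Hmgcs1 was the only one of the 29 genes with the TCACNCCAC letters, 137 bases before its start site, a share of 3.45% beside 1.41% of tested genes. Only exact matches were searched, N being any base, so a sterol regulatory element with other letters would be missed. No promoter was held for Sqle, Fdft1, Fdps, Scd1, Scd2, Fads1 or Stard4. CCAAT stood in the promoters of 24 of the 29 genes (82.8%), beside 43.7% of tested genes. The GC box was found for 23 (79.3%), beside 69.6% of tested genes, and CACGTG for 6 (20.7%), beside 11.7%. Counted per promoter rather than per gene, CCAAT was in 25 of 38 (65.8%) of the members' promoters and in 37.4% of all promoters in the table. The CCAAT letters did not sort the members by direction. They were found for all 3 genes with a promoter that rose, for 6 of 8 that fell, where Acaca and Elovl6 lacked them, and for 15 of 18 that passed in neither direction. The promoter held for Acaca begins at chr11:84195188, inside a gene that starts at 84129672. That of Acacb begins at chr5:114165268, inside a gene that starts at 114146535, so the outermost start of neither gene was searched. A match is a run of letters and not a measured binding site.

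**Figure D2:**
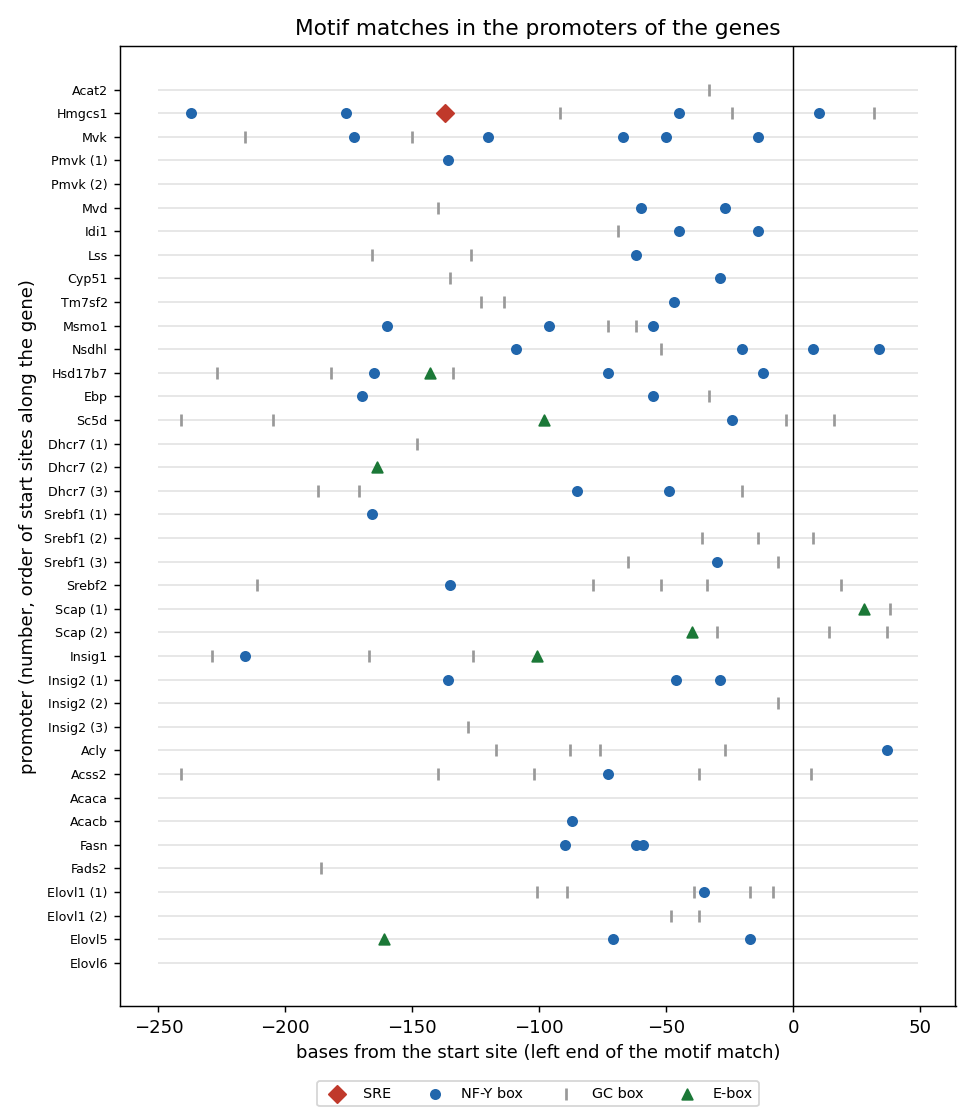
Place of each motif match (x axis, bases from the start site to the left end of the match) in the 38 promoters of 29 members, 1 line per promoter, with genes of several promoters numbered along the gene. The diamond marks the match to the sterol regulatory element in Hmgcs1, 137 bases before the start site, and circles mark the NF-Y box CCAAT, which stands in 25 of the 38 promoters.

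In the mevalonate segment Idi1 fell the most. Idi1 (chr13:8885501-8892451, GRCm38) isomerises isopentenyl diphosphate, the building block of all isoprenoids. It had normalized counts of 1377, 1337 and 1424 in control and 999.9, 949 and 1131 in D-gal libraries, a count being divided by its library's scaled size and multiplied by the mean size. The groups did not overlap, and the mean fell by 25.6%, from 1379 ± 43.7 to 1027 ± 94.2 (SD, n = 3 libraries a group). The log2 fold change was -0.43 ± 0.07 (SE; edgeR adjusted p = 0.00213). Of the 31-base words in the Idi1 exons 18.8% also occurred in other annotated exons, most of them in Gm13502, so some reads of the pair could have been assigned to either.

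Hmgcs1, which condenses acetoacetyl-CoA with acetyl-CoA at the entry to the pathway, had normalized counts of 3677, 3647 and 3737 in control and 3351, 3049 and 3153 in D-gal libraries. The groups did not overlap, and the mean fell by 13.6% (log2 fold change -0.21 ± 0.04, edgeR adjusted p = 0.00547). Mvk, the kinase that phosphorylates mevalonate, read 600.4, 660.1 and 618 against 569, 586 and 595. Its D-gal libraries were also below all control libraries, but the difference of -0.10 ± 0.06 (SE, log2) did not pass (edgeR adjusted p = 0.228). The same was true of the other 4 enzymes of the segment, which passed in neither direction. The thiolase Acat2 had a log2 fold change of -0.12, the second kinase Pmvk -0.08, the decarboxylase Mvd -0.06 and the prenyl synthase Fdps -0.09, and the groups of all 4 overlapped. Leaving out 1 library brought Acat2 to -0.04 (control replicate 1), Mvd to -0.01 and Fdps to -0.04 (both D-gal replicate 1) and Mvk to -0.06 (control replicate 2). Acat2 shares 43.7% of its exon words with other genes, chiefly Acat3, and Fdps 27.9%, chiefly with Gm43738, so their counts are the least certain of this segment.

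From squalene onward the enzymes moved both ways. Nsdhl (chrX:72918557-72958514), a sterol dehydrogenase that takes part in removing methyl groups from the ring, had normalized counts of 785, 873 and 861 in control and 1139, 1191 and 1156 in D-gal libraries. The lowest D-gal library stood well above the highest control library. The mean rose by 38.4%, from 839.9 ± 47.8 to 1162 ± 26.7, with a log2 fold change of 0.47 ± 0.06 (edgeR adjusted p = 4.93e-04). Its partners in the same demethylation, the oxygenase Msmo1 and the reductase Hsd17b7, had log2 fold changes of 0.21 and 0.12 and did not pass (edgeR adjusted p = 0.227 and 0.154). For Msmo1, whose groups overlapped, the value depended on single libraries. The log2 fold change was 0.33 without D-gal replicate 1 (edgeR adjusted p = 0.0374), 0.13 without D-gal replicate 3 and 0.11 without control replicate 3 (edgeR adjusted p = 0.516 and 0.517).

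Sqle (chr15:59315077-59331192), the squalene epoxidase and a rate-controlling step of the sterol branch, moved the other way. It read 2965, 3112 and 3003 in control and 2464, 2510.5 and 2588 in D-gal libraries. The groups were far apart, and the mean fell by 16.7% (log2 fold change -0.26 ± 0.04, edgeR adjusted p = 0.00107). Ebp, the isomerase that shifts a double bond within the sterol ring, read 708, 744 and 719 in control and 604, 673 and 611 in D-gal libraries. It fell by 13.0% (log2 fold change -0.20 ± 0.06, edgeR adjusted p = 0.0365), but this call was lost when any library other than D-gal replicate 2 was left out, with edgeR adjusted p values from 0.0667 to 0.107, and in DESeq2, with an adjusted p of 0.0902.

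The other 6 enzymes of this segment passed in neither direction. Fdft1, which joins farnesyl units into squalene, had a log2 fold change of 0.00, and Lss, which closes the ring system, -0.13. Lss came near the threshold (edgeR adjusted p = 0.0644), with no overlap between the groups. The lanosterol demethylase Cyp51 stood at -0.07, the desaturase Sc5d at 0.10 and the final reductase Dhcr7 at 0.17. Tm7sf2, a sterol reductase, had the highest log2 fold change of these 6, 0.34, on only 71 to 80 raw counts a library (edgeR adjusted p = 0.0774).

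The control and transfer genes held 4 of the 11 members that fell. Srebf2 (chr15:82147266-82205376) encodes the SREBP that acts mainly on sterol genes. It had normalized counts of 5229, 5281 and 5151 in control and 4092, 4266 and 4231 in D-gal libraries. The gap between the groups was several times the spread within either, and the mean fell by 19.6%, from 5220.3 ± 65.2 to 4196 ± 92.3 (log2 fold change -0.32 ± 0.03, edgeR adjusted p = 2.02e-04). Srebf1, whose products act mainly on fatty acid genes, read 1281, 1362 and 1386 in control and 1208, 1184 and 1221 in D-gal libraries. It fell by 10.3% (log2 fold change -0.16 ± 0.05, edgeR adjusted p = 0.0305), a call that was lost without any library other than control replicate 1, with edgeR adjusted p values from 0.0581 to 0.0956, and in DESeq2, with an adjusted p of 0.0925.

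Insig1, itself a target of SREBP and a retention factor for SCAP, read 1242, 1195 and 1193 in control and 1087, 963 and 1035 in D-gal libraries. It fell by 14.98% (log2 fold change -0.23 ± 0.06, edgeR adjusted p = 0.0128). Insig2, the second retention factor, read 554, 556 and 568 against 606, 577 and 682. All 3 D-gal libraries were above the control libraries, but the difference of 0.15 ± 0.07 (SE, log2) did not pass (edgeR adjusted p = 0.145), and it was 0.08 without D-gal replicate 3. Scap, the escort protein, read 2971, 2986 and 2797 against 2813, 2802 and 2921, and its groups overlapped (log2 fold change -0.04, edgeR adjusted p = 0.513). Stard4, a soluble carrier of cholesterol between membranes, read 1182, 1203 and 1284 in control and 1076, 999 and 1046 in D-gal libraries. It fell by 14.9% (log2 fold change -0.23 ± 0.05, edgeR adjusted p = 0.0104).

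At the entry to fatty acid synthesis Acss2 changed more than any other of the 36 genes. Acss2 (chr2:155517948-155585724) makes acetyl-CoA from acetate in the cytosol and nucleus. It had normalized counts of 227, 228 and 220.2 in control and 386, 575 and 513 in D-gal libraries. The control libraries were nearly equal, while the D-gal libraries differed among themselves by more than the control level's whole spread and all lay far above it. The mean rose from 225 ± 4.36 to 492 ± 96.6, a 2.18-fold difference (log2 fold change 1.13 ± 0.14, edgeR adjusted p = 6.10e-04). The log2 fold change was 0.997 to 1.27 when any library was left out, and 0.69 with limma on the log2(FPKM + 1) scale, which shrinks the change of low genes. Acss2 exons overlap those of Ggt7, Gss and Acss2os on the other strand, and whether counting used strand is not given in the sources used here. Neither neighbour rose with it: the log2 fold change of Ggt7 was -0.12 and that of Gss -0.05, and Acss2os had at most 1 count in any library.

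Acly, which makes acetyl-CoA from citrate and is the more abundant source of the pair, did not pass (log2 fold change -0.02, edgeR adjusted p = 0.71). Acaca, the cytosolic acetyl-CoA carboxylase that makes malonyl-CoA for synthesis, read 1790.0, 1847 and 1723 in control and 1594, 1641 and 1652 in D-gal libraries. It fell by 8.84% (log2 fold change -0.13 ± 0.04, edgeR adjusted p = 0.0362). This call was lost without any library other than control replicate 3, with edgeR adjusted p values from 0.0655 to 0.125, and in DESeq2, with an adjusted p of 0.121. In addition 33.4% of the Acaca exon words are shared, chiefly with Gm5182. Acacb, the mitochondrial carboxylase whose product restrains fatty acid oxidation, read 149, 132 and 118 against 117, 85.2 and 108, with a log2 fold change of -0.37 ± 0.15 (edgeR adjusted p = 0.103) on 78 to 171 raw counts. Fasn, the synthase that builds palmitate, read 8537, 9143 and 9148 against 8351, 8504 and 8014, with all D-gal libraries below all control libraries. Its log2 fold change of -0.11 ± 0.04 narrowly missed (edgeR adjusted p = 0.0597), and without control replicate 1 it was -0.14 with an adjusted p of 0.0241.

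**Figure D3:**
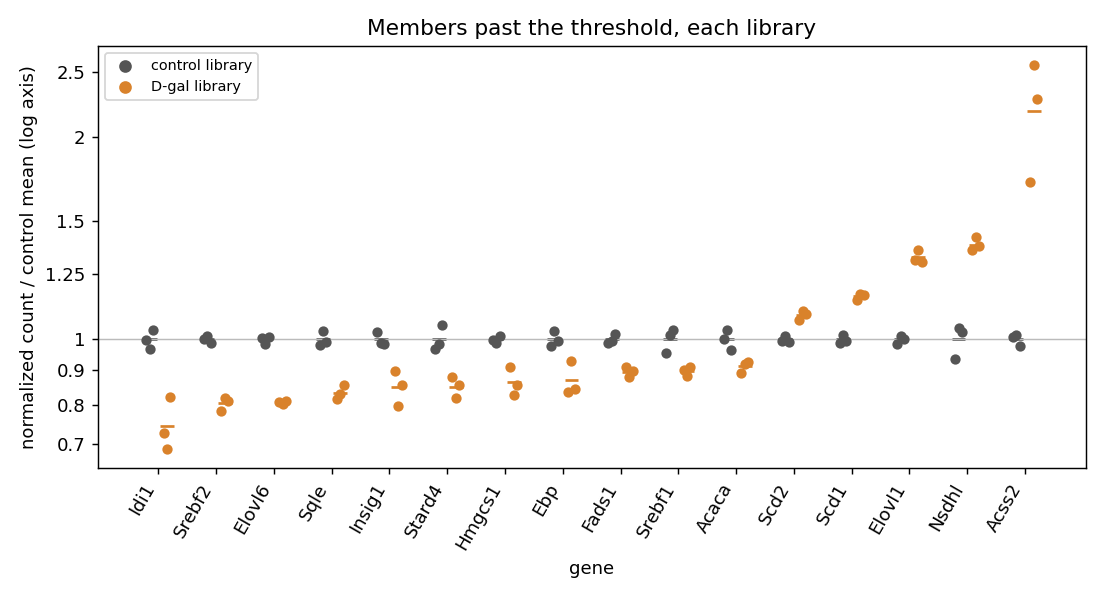
Normalized count of each library divided by the control mean (y axis, log axis) for the 16 members that rose or fell, with 1 dot per library and a line at each group's mean. The control and D-gal dots are apart for every gene, and Acss2, 2.18-fold higher, stands above the other 4 genes that rose.

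The desaturases and elongases split by gene. Scd1 and Scd2, which place the first double bond in saturated fatty acids, both rose. Scd1 read 4487, 4609 and 4522 in control and 5197, 5305 and 5289 in D-gal libraries, and its mean rose by 15.95% (log2 fold change 0.21 ± 0.03, edgeR adjusted p = 0.00101). Scd2, the most abundant of the 36 genes per kilobase, read 16342, 16605 and 16279 against 17559.8, 18114 and 17913, and rose by 8.86% (log2 fold change 0.12 ± 0.02, edgeR adjusted p = 0.00661). Neither gene's groups overlapped, and in both cases the spread within a group was small beside the difference. Fads1, a desaturase of polyunsaturated fatty acids, went the other way. It read 2988, 3013 and 3079 in control and 2758, 2658 and 2718 in D-gal libraries, and fell by 10.4% (log2 fold change -0.16 ± 0.03, edgeR adjusted p = 0.00761). Its partner Fads2, which acts earlier on the same substrates, read 1919.8, 1909 and 1787 against 1836, 2056 and 1915, and did not pass (log2 fold change 0.05, edgeR adjusted p = 0.518).

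Elovl1 and Elovl6 moved in opposite directions. Elovl1 (chr4:118428093-118432953), which lengthens saturated and monounsaturated chains to very long ones, read 668, 687 and 679.6 in control and 891, 922 and 884 in D-gal libraries. The groups were clearly apart and the mean rose by 32.5%, from 678 ± 9.39 to 899 ± 19.8 (log2 fold change 0.41 ± 0.05, edgeR adjusted p = 4.94e-04). It overlaps Cdc20 on the other strand by 53 bases, and Cdc20, a gene of dividing cells, moved the other way, with a log2 fold change of -0.37. Elovl6 (chr3:129532355-129638495), which extends palmitate to stearate, read 1581, 1552 and 1589.5 in control and 1273, 1263 and 1276 in D-gal libraries. Its D-gal values were almost equal, and the mean fell by 19.3%, from 1574 ± 19.6 to 1271 ± 6.53 (log2 fold change -0.31 ± 0.04, edgeR adjusted p = 4.88e-04). Elovl5, the elongase of polyunsaturated chains, read 1738, 1776 and 1785 against 1864, 1690.4 and 1653, overlapped between groups and did not pass (log2 fold change -0.03, edgeR adjusted p = 0.741).

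Levels of different genes were compared per kilobase of annotated exon, as CPM per kilobase. In control libraries Scd2 led with 179, followed by Acly with 84.4, Cyp51 with 55.7, Scd1 with 55.3, Fasn with 48.7, Hmgcs1 with 47.8 and Srebf2 with 43.3. At the other end were Acacb with 0.823, Tm7sf2 with 0.901, Acss2 with 1.32 and Dhcr7 with 2.87. Exons of 13 of the 36 genes overlap another annotated gene, 10 of them on the other strand, so levels may include reads of a neighbour. The order also depends on the exon length used. In the authors' own values per length (FPKM) for control replicate 1, Scd2 again led, with 177. Fads2 (75.1), Hmgcs1 (67.1) and Srebf2 (61.8) stood above Acly (52.9) there. The gene with the largest fold change was among the 3 lowest in level. Summed over the 7 mevalonate enzymes, the level was 141 ± 2.49 in control and 124 ± 1.69 in D-gal libraries, a ratio of 0.88, and the groups did not overlap. Hmgcs1 went from 47.8 to 41.3 and Idi1 from 23.4 to 17.5, so much of that difference was 2 genes. For the 6 control and transfer genes the sums were 127 ± 0.666 and 112 ± 2.37, a ratio of 0.882. Much of that difference was Srebf2, which went from 43.3 to 34.8. For the 11 enzymes from squalene to sterol they were 198 ± 3.12 and 198 ± 4.65, a ratio of 1.003.

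On the fatty acid side the sums stood at 141 ± 3.34 and 138 ± 2.10 for synthesis, a ratio of 0.974. Desaturases and elongases together had 365 ± 3.15 in control and 388 ± 3.99 in D-gal libraries, a ratio of 1.06. All 12 fatty acid enzymes together gave a ratio of 1.04, and 1.01 without Scd2, so much of that sum was 1 gene. All 18 sterol enzymes together gave a ratio of 0.952. These sums are descriptions with no test, and the weight of each gene in them depends on the exon length used.

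**Figure D4:**
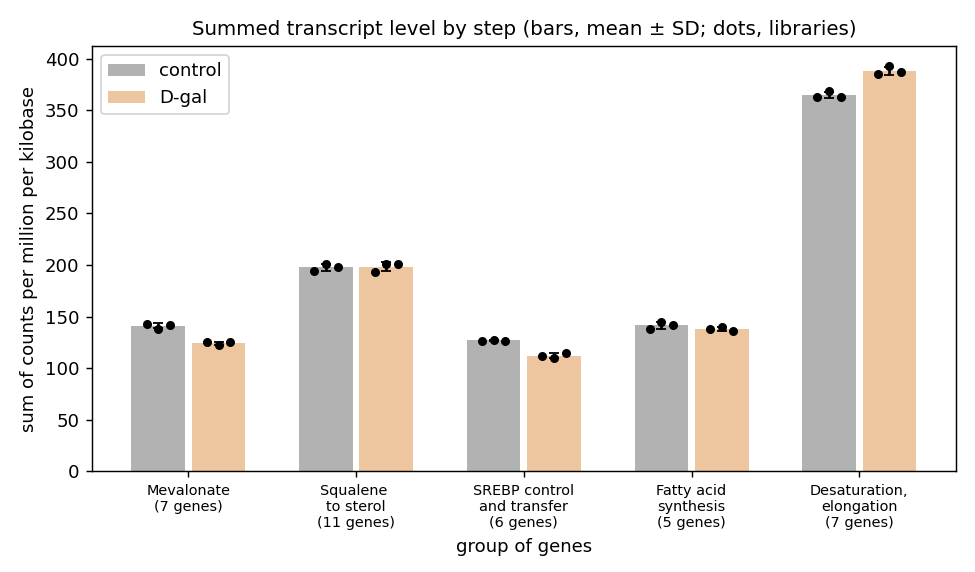
Summed level of each group of genes (y axis, CPM per kilobase of exon) in control and D-gal libraries, with bars for the mean, error bars for the SD and 1 dot per library. The mevalonate sums (141 against 124) and the control and transfer sums (127 against 112) are lower under D-gal, and the desaturase and elongase sums (365 against 388) are higher.

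The 6 pairs of related genes were compared within each library, as the log2 ratio of their levels per kilobase, which removes library size. The size of a ratio depends on the exon lengths used, while with fixed lengths its shift between groups does not. In the authors' FPKM for control replicate 1, Srebf1 had 8.21 and Srebf2 61.8, and Insig1 had 21.2 and Insig2 4.32. Fads1 had 51.0 and Fads2 75.1 there, the reverse of the control order given below. With 3 libraries against 3 the smallest two-sided p of the exact permutation test is 0.1, so no pair could pass 0.05. The Srebf1 level was 0.328 of the Srebf2 level in control and 0.366 in D-gal libraries, a shift of 0.16 in the log2 ratio. Insig1 stood at 2.43 times the level of Insig2 in control and 1.86 times in D-gal libraries, a shift of -0.38, or -0.32 without D-gal replicate 3. Scd1 relative to Scd2 went from 0.309 to 0.329, a shift of 0.09. Fads1 relative to Fads2 went from 1.11 to 0.96, a shift of -0.21, and Elovl5 relative to Elovl6 from 2.05 to 2.49, a shift of 0.28. In these 5 pairs the groups did not overlap (exact permutation p = 0.1, adjusted over the 6 pairs 0.12). Each of the 5 holds at least 1 gene that rose or fell by itself. Of single tested genes, 25.0% had all D-gal libraries below all control libraries and 24.1% had all above. The share over other gene pairs was not computed. Acaca relative to Acacb went from 7.60 to 8.96, a shift of 0.24 with overlapping groups (exact permutation p = 0.3, adjusted 0.3).

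**Figure D5:**
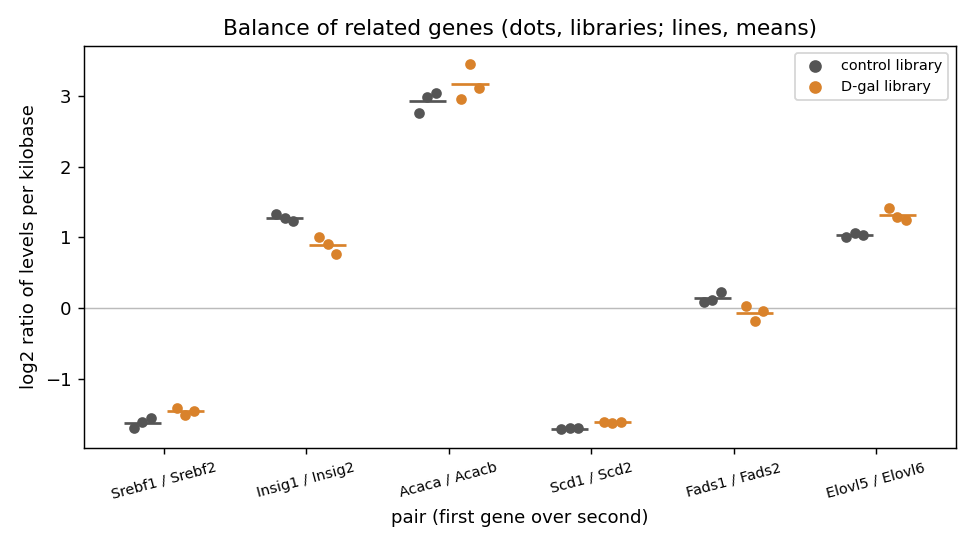
Log2 ratio of the levels per kilobase of 6 pairs of related genes (y axis) in each control and D-gal library. The libraries of the 2 groups are apart in 5 pairs and overlap for Acaca over Acacb, where the shift was 0.24.

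Other genes of the same pathways were taken as whole lists, and the shares below stand beside the 16.9% of all tested genes that rose and the 17.8% that fell. Of 16 genes that use isoprenoids for other products 2 rose (12.5%) and 1 fell (6.25%), with a median log2 fold change of 0.10. Those that rose were the prenyl protein protease Zmpste24, at 0.19 ± 0.04 (edgeR adjusted p = 0.0047), and the farnesyltransferase subunit Fnta, at 0.17 ± 0.04 (edgeR adjusted p = 0.014). Of 21 other tested regulators of SREBP and sterols 3 rose (14.3%) and 4 fell (19%). Sec24d, a coat protein of vesicles that leave the endoplasmic reticulum, fell from 1887 ± 45.2 to 1329.9 ± 29.2 normalized counts (log2 fold change -0.50 ± 0.04, edgeR adjusted p = 6.3e-05). Mbtps1, the site-1 protease that makes the opening cut in SREBP, fell from 3959 ± 129 to 3123 ± 106 (log2 fold change -0.34 ± 0.04, edgeR adjusted p = 4.56e-04).

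Of 18 tested genes of sterol transport, storage and export 4 rose and 4 fell, 22.2% in each direction. Soat1, which esterifies cholesterol for storage, fell with a log2 fold change of -0.44 ± 0.04 (edgeR adjusted p = 1.36e-04), and Npc2, which hands cholesterol out of the lysosome, with -0.39 ± 0.04 (edgeR adjusted p = 3.15e-04). Of 26 tested other genes of fatty acid metabolism 6 rose (23.1%) and 4 fell (15.4%), with a median of 0.00. The shares of these last 2 lists were near those of all tested genes. Me1, the malic enzyme that supplies NADPH for fatty acid synthesis, read 1577, 1502 and 1526 in control and 4521.5, 5731 and 4886 in D-gal libraries. With Acss2 it was the other lipid synthesis gene on these lists to change by at least 2-fold: it rose 3.29-fold (log2 fold change 1.72 ± 0.08, edgeR adjusted p = 7.87e-06), although 30.0% of its exon words are shared, chiefly with Gm7049. Hacd2, a dehydratase of the elongation cycle, rose with a log2 fold change of 0.71 ± 0.07 (edgeR adjusted p = 1.54e-04).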

How the data were processed

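RNA from NOR-10 cells was sequenced in 6 libraries, 3 per group, grouped by the treatment the labels give. Reads were checked with FastQC and trimmed with Trimmomatic, and HISAT2 (2.0.4, from the submitters' processing notes) aligned them. The labels name a VAHTS Universal V6 RNA-seq kit and the methods a NEBNext small RNA kit, and which was used cannot be told from these sources. The counting tool, its strand setting and the annotation are not given in the sources used here, and neither is a build, but 27 of the 36 loci have exactly the span of GENCODE M21 (GRCm38). The authors deposited 1 table of whole read counts per gene, with FPKM values beside them. The deposited FPKM were used only for alternative tests and for a second look at the pair ratios and levels.

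Counts were tested with edgeR (4.0.16, R 4.3.3): TMM scaling, filterByExpr and the quasi-likelihood test over 13407 genes, with Benjamini-Hochberg adjustment. Differential expression followed the study's thresholds: adjusted p under 0.05, log2 fold change 1 or more in either direction. Scaling factors lay between 0.9855 and 1.015. Standard errors were derived from the fitted change and the square root of the F statistic. Exon lengths and shared 31-base words were computed from GENCODE M21, and promoters were taken from RefSeq. The test was run on simulated data beforehand. Libraries of a group differed beyond sampling noise in every pair. Alternatives were DESeq2 (1.42.0), limma (3.58.1) on log2(FPKM + 1) and log2(FPKM + 0.1), other scaling and filters, a stricter threshold, a replicate block and each library left out.

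The members and gene lists were chosen with earlier results of these data known. Named in full were the 3 members of each step with the smallest p, the SREBP and INSIG genes with Scap, the related pairs and any member changed by at least 2-fold. Of each other list the 2 genes with the smallest p were named.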

Additional observations from a re-analysis of the deposited data

How the results depend on the processing

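Of the 16 members that rose or fell, 13 kept their direction and an adjusted p under 0.05 in all 13 alternatives at that threshold. The exceptions were Ebp, Srebf1 and Acaca, which changed by 13.0% or less. The number of members that fell was 11, and 8 in DESeq2 and in limma at both pseudocounts, while the 2 mevalonate enzymes fell in every setting run. Over all genes 2393 fell in the main test and 2021 in DESeq2. The count of control and transfer genes was 4, 3 in DESeq2, limma and the replicate block, and 3 to 4 when a library was left out. From squalene to sterol 1 enzyme fell in DESeq2, in limma at both pseudocounts and at an adjusted p under 0.01, and 1 to 2 fell when a library was left out. In fatty acid synthesis 0 fell in those 4 settings and under the replicate block, 2 fell without a filter on low counts, where Fasn passed, and 0 to 1 fell when a library was left out. The higher count from squalene to sterol was 3 in limma on log2(FPKM + 1), 2 on log2(FPKM + 0.1), and 1 to 2 when a library was left out. At an adjusted p under 0.01, 6 members fell, 1 of them among the control and transfer genes, and over all genes 1259 rose and 1470 fell.

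In limma on log2(FPKM + 1) and log2(FPKM + 0.1) the medians of all 5 groups lay higher, including that of all tested genes, which went from 0.0036 to 0.0266 and 0.0355. Negative medians moved to -0.0588 and -0.0655 for the mevalonate enzymes, to -0.14 and -0.16 for the control and transfer genes, and to -0.0726 and -0.0744 for fatty acid synthesis. Positive ones moved from 0.0989 to 0.1278 and 0.1331 from squalene to sterol and from 0.0481 to 0.0809 and 0.0818 for desaturases and elongases. With a library left out the mevalonate median ran from -0.15 to -0.078, and the desaturase and elongase median from 0.0029, without D-gal replicate 2, to 0.0847. The number of all genes called differentially expressed was 564 and fell to 120 on log2(FPKM + 1).

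Replicate numbers did not pair the libraries: deviations from the group means correlated at -0.0133, -0.00403 and 0.0277 between libraries of the same number. With the replicate block 5 members rose and 9 fell, with edgeR adjusted p values of 0.0587 for Srebf1 and 0.0725 for Acaca, and over all genes 1934 rose and 2048 fell.

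Sign changes were seen only in members that passed in neither direction. Fdft1 was at -0.0042 without the filter and ran from -0.05, without control replicate 1, to 0.0413 when a library was left out, with -0.0178 without D-gal replicate 3. Acly was at 0.0185 and 0.0189 on the 2 FPKM scales. Elovl5 was at 0.0072 and 0.0074 on those scales and ran from -0.0795 to 0.0081, without D-gal replicate 3, when a library was left out, and Pmvk ran from -0.15 to 0.0373, the latter without that same library. The cause of these shifts was not tested. Depth limits Acacb and Tm7sf2 most, since neither had more than 171 counts in a library.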
